A study of Mus musculus with 3 samples.

Results

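Apoa1, Apoa4, Apob, Apoc3, Mttp, Fabp1, Fabp2, Rbp2, Dgat1 and Scarb1 carry dietary lipid through the small intestinal enterocyte. These 10 of the 32285 genes in the files were chosen by symbol, with earlier results of these data known. Their unique molecular identifiers (UMIs, the tags that count captured transcripts) were summed over epithelial cells gated on marker genes, over barcodes with more than 15% of UMIs from mitochondrial (mt-) genes, and over immune cell classes, in each 10x well. Levels are UMIs per 1000000 UMIs of the same cells (CPM).

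In the duodenum, fatty acids and monoacylglycerol enter the enterocyte across the brush border, travel through the cytosol bound to FABP1 and FABP2, and are rebuilt into triglyceride in the endoplasmic reticulum, where DGAT1 adds the last acyl chain. MTTP loads that triglyceride onto apolipoprotein B, and the particle leaves the cell as a chylomicron that also carries APOA1, APOA4 and APOC3. RBP2 binds retinol in the same cell, and SCARB1 (SR-BI) is a receptor for high density lipoprotein that takes up cholesterol and carotenoids.

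The study asked how immune cells of the mouse gut wall respond to alpha-synuclein preformed fibrils (PFF), aggregates of the protein that accumulates in Parkinson's disease. Male C57B6/J mice received recombinant mouse PFF in the muscle of the duodenum (PFF 1, batch 1) or saline (saline 1, batch 1, and saline 2, batch 2), and tissue was taken on day 30. The duodenum was dissociated in Accumax, CD45-sorted cells were combined with CD11b bead-enriched cells, and 3′ v3 libraries were made, so epithelial cells are a remainder of an immune preparation. The labels give no ages and no number of mice per library, so p-values measure the spread between these libraries.

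The PFF 1 file is 1 well with 142955760 UMIs. Wells 1 to 3 of both saline files hold the same 1509, 3648 and 8732 barcodes with identical counts. They were counted once and are called the shared saline wells, and the unshared wells of saline 1 (20788920 UMIs) and saline 2 (64940311 UMIs) served as the saline libraries in all tests. After gating, 378 epithelial cells came from PFF 1, 39 from saline 1, 462 from saline 2, and 196, 737 and 4 from shared saline wells 1, 2 and 3. T cells numbered 9485 in PFF 1, 4992 in saline 1, 2769 in saline 2 and 637, 705 and 7111 in shared saline wells 1, 2 and 3. Against the labelled cell type, 36.5% of barcodes past the depth filter in shared saline well 1 and 67.6% in shared saline well 2 were epithelial. PFF 1 and saline 2 share 119 barcodes. In these a barcode had a median of 696 UMIs in the PFF 1 file and of 59931 UMIs in the saline 2 file, and a median of 99.4% of the genes of the PFF 1 barcode were also in its saline 2 partner, against 80.1% for the next barcode of saline 2. They include 55 of the 378 PFF 1 epithelial cells. With them the 10 genes made up 23470 CPM of PFF 1 epithelial UMIs, and without them 23457 CPM.

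Apoa1 (chr9:46228580-46230466, plus strand), Apoc3 (chr9:46232933-46235636, minus strand) and Apoa4 (chr9:46240696-46243459, plus strand) lie side by side within 14880 bases (GENCODE vM21, GRCm38). The other 7 genes are apart from them: Rbp2 at chr9:98486115-98509781, Fabp2 at chr3:122895072-122899506, Mttp at chr3:138089854-138144968, Scarb1 at chr5:125277087-125341094, Fabp1 at chr6:71199827-71205023, Apob at chr12:7977648-8016835 and Dgat1 at chr15:76502015-76511953. Apoa1 and Apoc3 are 2466 bases apart and Apoc3 and Apoa4 5059 bases, so the 3 annotated genes do not overlap.

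RefSeq promoter windows (GRCm38.p6) were matched for 7 of the 10 genes, and not for Apoc3, Dgat1 and Scarb1. The 250 bases before the RefSeq start are shown for 5 of them, the windows that held a match to the motifs below. These 5 genes took different courses along the villus axis described below. Capitals mark matches on either strand to CAAAGTNCA or CAAAGGNCA, letters of the kind bound by nuclear receptors such as HNF4, and to TATAAA.
Apoa4 (chr9:46240594-46240843, plus strand): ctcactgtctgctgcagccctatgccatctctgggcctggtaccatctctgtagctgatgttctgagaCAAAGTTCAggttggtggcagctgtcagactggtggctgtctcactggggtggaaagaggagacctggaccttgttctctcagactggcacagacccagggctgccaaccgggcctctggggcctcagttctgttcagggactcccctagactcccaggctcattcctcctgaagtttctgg
Apob (chr12:7977427-7977676, plus strand): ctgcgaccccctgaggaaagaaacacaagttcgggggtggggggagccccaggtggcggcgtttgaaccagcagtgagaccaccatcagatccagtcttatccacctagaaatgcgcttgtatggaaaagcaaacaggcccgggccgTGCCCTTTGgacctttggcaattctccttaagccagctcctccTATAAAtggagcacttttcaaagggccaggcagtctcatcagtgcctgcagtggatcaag
Fabp1 (chr6:71199629-71199878, plus strand): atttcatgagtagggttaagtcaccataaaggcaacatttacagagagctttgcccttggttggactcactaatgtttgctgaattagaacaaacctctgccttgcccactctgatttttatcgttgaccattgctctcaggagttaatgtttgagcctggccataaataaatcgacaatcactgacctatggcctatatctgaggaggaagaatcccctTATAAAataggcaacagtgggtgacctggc
Fabp2 (chr3:122894822-122895071, plus strand): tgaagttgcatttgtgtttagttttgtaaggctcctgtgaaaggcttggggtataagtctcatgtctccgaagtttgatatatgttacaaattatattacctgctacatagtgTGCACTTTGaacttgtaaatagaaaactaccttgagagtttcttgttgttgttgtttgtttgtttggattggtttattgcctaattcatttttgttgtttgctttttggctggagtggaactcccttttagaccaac
Rbp2 (chr9:98490287-98490536, plus strand): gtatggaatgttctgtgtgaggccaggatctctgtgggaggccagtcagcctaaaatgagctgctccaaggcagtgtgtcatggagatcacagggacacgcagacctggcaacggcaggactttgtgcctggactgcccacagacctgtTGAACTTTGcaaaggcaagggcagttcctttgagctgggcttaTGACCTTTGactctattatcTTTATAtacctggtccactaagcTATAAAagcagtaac
CAAAGTNCA was present in Apoa4, Fabp2 and Rbp2, and in 1.19% of all 32851 windows of this length. CAAAGGNCA was present in Apob and Rbp2, and in 1.71% of all windows, with no overlap between the matches of the motifs. TATAAA was present in Apob, Fabp1 and Rbp2, and in 12.4% of all windows. Genes high at the tip and genes high at the base both held such matches. No match to the 3 motifs was found in the windows of Apoa1 and Mttp, which are not shown.

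All 10 lipid genes had far higher levels in epithelial cells than in T cells. Of the 4 secreted apolipoproteins, Apoa4, which coats newly made chylomicrons, had 5935 CPM in epithelial cells of PFF 1, 14129 CPM in saline 1 and 5857 CPM in saline 2, against 11.3, 6.78 and 44.9 CPM in T cells of the same wells. Apob, the structural protein of the particle, had 1568, 3340 and 1738 CPM in epithelial cells of PFF 1, saline 1 and saline 2, against 2.01, 1.03 and 11.8 CPM in T cells. Dgat1 had 269.9, 478.3 and 292.5 CPM in epithelial cells, against 24.0, 24.97 and 21.8 CPM in T cells. In every one of these wells the epithelial level lay above the T cell level, without overlap. All 10 genes were higher in epithelial cells by edgeR's quasi-likelihood test with the library as block and Benjamini-Hochberg adjustment over all genes, where 30.7% of 15327 genes were called higher and 34.1% lower (64.8% in all). The fold was 631 for Apoa4 (log2 9.30 ± 1.01 SE, adjusted p = 9.65e-05, higher in 3 of 3 libraries) and 827 for Apob (log2 9.69 ± 0.98, adjusted p = 6.32e-05). It was between 236 and 564 for Apoa1, Apoc3, Mttp, Fabp1, Fabp2 and Rbp2. It was smallest for Dgat1, 17.3 (log2 4.11 ± 0.25, adjusted p = 3.71e-06), and Scarb1, 12.3 (log2 3.62 ± 0.36, adjusted p = 6.09e-05). Of 52 other genes of lipid uptake, resynthesis, chylomicron assembly, sterol efflux, retinoid handling and their regulation, 50 were tested, 44 were called higher in epithelial cells and 1 lower. The acyltransferase Mogat2, the retinol dehydrogenase Rdh7 and the fatty acid transporter Slc27a2 had log2 fold changes of 9.83, 9.80 and 9.76, and Gpat4, Lpin2, Soat2, Apoe and Mia3 were tested but not called.

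Among enterocytes the genes split into 3 courses from villus base to villus tip. Within each well, cells with enterocyte markers were ranked by UMIs of tip markers (Ada, Nt5e, Slc28a2, Klf4) over base markers (Reg1, Reg3b, Reg3g, Nlrp6, Il18, Lypd8), none of them a gene reported here, and cut into 3 equal groups. Apoa4 had 55407 CPM in the tip group and 1064 CPM in the base group of PFF 1, 38091 and 4278 CPM in saline 1, and 41801 and 1455 CPM in saline 2. The tip groups did not overlap the base groups. In shared saline wells 1 and 2, which the test did not use, the tip group had 11.2 and 13.3 times the base level. Over all 5 wells that ratio ran from 8.90 in saline 1 to 52.1 in PFF 1. The fold was 29.7 (log2 4.89 ± 0.75 SE, adjusted p = 1.05e-09). Of the 10 genes 5 were higher and 2 lower in the tip group, where 20.2% of 6493 genes tested were called higher and 28.3% lower (48.5% in all). The median log2 fold change was 1.19 over the 10 genes and -0.24 over all genes tested.

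The other particle proteins went the same way. Apob had 9728 CPM in the tip group and 799.9 CPM in the base group of PFF 1, 6256 and 2497 CPM in saline 1, and 9228 and 1102 CPM in saline 2 (log2 fold change 2.99 ± 0.63, adjusted p = 1.11e-05). Apoc3, an inhibitor of lipoprotein lipase, had 4727 and 329.2 CPM in tip and base groups of PFF 1, 3181 and 1158 CPM in saline 1, and 3250 and 494.7 CPM in saline 2 (log2 2.98 ± 0.59, adjusted p = 2.78e-06). Apoa1, the main protein of high density lipoprotein, had 17939 and 2074 CPM in PFF 1, 19970 and 5020 CPM in saline 1, and 16401 and 3944 CPM in saline 2 (log2 2.66 ± 0.62, adjusted p = 8.74e-05). For these 3 genes the tip group exceeded the base group in 5 of 5 wells. Scarb1 was also called higher (log2 1.97 ± 0.62, adjusted p = 0.00437), but on 11, 1 and 17 UMIs in the tip groups of PFF 1, saline 1 and saline 2 against 11, 5 and 30 UMIs in the base groups. In saline 1 its level was 11.8 CPM at the tip and 25.1 CPM at the base, so the direction held in 4 of 5 wells, and without PFF 1 the log2 fold change was 1.07 with adjusted p = 0.37. DESeq2 gave adjusted p = 0.257 for Scarb1.

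The cytosolic binding proteins ran the other way. Fabp1, the liver-type fatty acid binding protein, had 729.7 CPM in the tip group and 7285 CPM in the base group of PFF 1, 1261 and 10140 CPM in saline 1, and 326.1 and 10716 CPM in saline 2. It was 11.3-fold lower at the tip (log2 fold change -3.51 ± 0.60, adjusted p = 7.33e-08, lower in 5 of 5 wells). Fabp2, the intestinal type, had 1936 and 4105 CPM in tip and base groups of PFF 1, 1944 and 8922 CPM in saline 1, and 1185 and 6114 CPM in saline 2. Its log2 fold change was -1.61 ± 0.56 (adjusted p = 0.0102), with adjusted p = 0.122 without saline 2 and 0.162 when enterocytes were cut into 2 groups. Rbp2 had 3660 and 6061 CPM in PFF 1, 3923 and 8591 CPM in saline 1, and 1974 and 7637 CPM in saline 2, a log2 fold change of -0.997 ± 0.55 that was not called (adjusted p = 0.126). It was lower at the tip in 5 of 5 wells and passed the threshold with every well as a library (adjusted p = 0.000782) and with DESeq2 (adjusted p = 0.0198).

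Mttp and Dgat1 were not called between tip and base. Mttp had 1195 and 1035 CPM in tip and base groups of PFF 1, 1496 and 1369 CPM in saline 1, and 1047 and 1006 CPM in saline 2 (log2 0.41 ± 0.49, adjusted p = 0.502). Dgat1 had 374.0 and 359.4 CPM in PFF 1, 377.0 and 431.3 CPM in saline 1, and 355.9 and 427.5 CPM in saline 2 (log2 0.16 ± 0.44, adjusted p = 0.784). Missing the threshold does not show that the levels were equal. Base cells were deeper, with a median of 2660.5 UMIs in the tip group and 5547.5 in the base group of PFF 1, 8197.5 and 22987 UMIs in saline 1, and 2909.5 and 37643 UMIs in saline 2. Among enterocytes with at least 5000 UMIs, which left 2 libraries, the count was 5 higher and 3 lower of the 10. At that depth 1339 of 8316 genes were called higher and 1947 lower (39.5% in all).

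**Figure D1:**
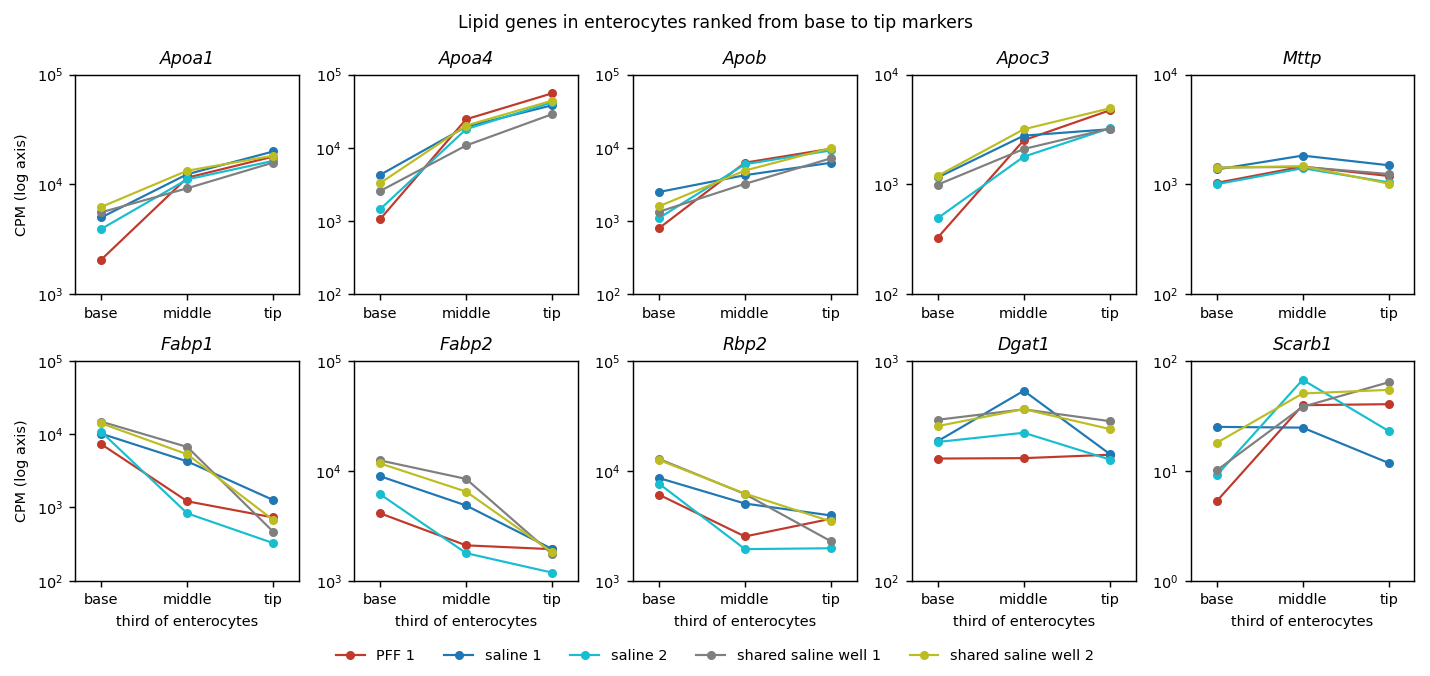
Level of each gene (CPM, log axis) in enterocytes cut into base, middle and tip groups by zone markers; each line is 1 well, red for PFF 1 and other colours for saline wells. In all 5 wells the tip group is above the base group for Apoa1, Apoa4, Apob and Apoc3 and below it for Fabp1, Fabp2 and Rbp2; its ratio to the base group is 0.717 to 1.16 for Mttp and 0.832 to 1.04 for Dgat1.

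Of the 52 other lipid genes 42 were tested between tip and base, 14 were called higher and 8 lower, against 20.2% and 28.3% of all genes tested. The diacylglycerol acyltransferase Dgat2 rose at the tip (log2 3.29 ± 0.49, adjusted p = 2.56e-10; 747.5 CPM at the tip and 94.8 CPM at the base on average), and so did the acyl-CoA synthetase Acsl3 (log2 6.36 ± 0.59), the fatty acid transporters Slc27a4 (2.66 ± 0.48) and Cd36 (1.00 ± 0.42) and the cholesterol transporter Npc1l1 (2.55 ± 0.49). The lipin phosphatases Lpin2 and Lpin3, Gpat3, Plin3, which also coats droplets, Apoc2 and the APOB mRNA editing enzyme Apobec1 rose as well, with log2 fold changes of 2.86, 2.44, 1.46, 2.04, 2.49 and 2.04. Retinoid genes fell, with 3 of 4 tested called lower: Rdh7 (-4.73 ± 0.61), Lrat (-2.18 ± 0.74) and Retsat (-1.96 ± 0.47). The droplet coat gene Plin2 (-2.36) was lower too. Of the transcription factors, Hnf4a (1.87), Creb3l3 (2.01) and Pparg (1.28) were higher at the tip, and Hnf4g (-1.88), Cdx2 (-2.27) and Ppara (-3.41) were lower.

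Levels in the other epithelial classes differed by gene and by well; the genes given here were chosen after their values were seen. In goblet cells, the mucus-secreting class, Apoa4 had 1726 CPM in PFF 1 (31 cells) and 345.3 CPM in saline 2 (52 cells), and Fabp2 had 2319 and 1075 CPM. Goblet levels were also set against epithelial cells of the well pooled with its epithelial barcodes above 15% mt- UMIs. Relative to that pool, goblet cells had 21.5% of the Apoa4 level, 67.5% of Fabp1 and 86.2% of Fabp2 in PFF 1. The same values were 4.38%, 9.09% and 34.9% in saline 2 and 7.54%, 71.5% and 73.1% in shared saline well 2. Tuft cells, a chemosensory class, were only 3 in PFF 1, 3 in saline 2 and 5 in shared saline well 2, and their Fabp1 level was 9343 CPM (27 UMIs), 5054 CPM (437 UMIs) and 13344 CPM (962 UMIs), while Fabp2 had 0 CPM in PFF 1 and saline 2 and 263.5 CPM in the shared well. A count of 0 in the tuft cells of saline 2 has an exact Poisson upper bound of 42.7 CPM. Of the 3 tuft cells of PFF 1, 1 remained without the barcodes shared with saline 2. Proliferating crypt cells had Mttp at 259.6 CPM in PFF 1 (12 cells) and 259.8 CPM in saline 2 (18 cells) and Dgat1 at 134.1 and 196.3 CPM, beside Apoa4 at 25.5 and 23.2 CPM. Enteroendocrine cells, the hormone-secreting class, had Scarb1 at 162.4 CPM in PFF 1 (7 cells), 77.8 CPM in saline 1 (2 cells) and 134.7 CPM in saline 2 (13 cells), beside Apoa4 at 42.7, 0 and 63.7 CPM. In the 7 enteroendocrine cells of shared saline well 2 Scarb1 had 40.8 CPM (95% exact Poisson interval 13.3 to 95.2), against 33.3 CPM in all epithelial cells of that well. The 2 enteroendocrine cells of shared saline well 1 held 0 UMIs of Scarb1, with an exact Poisson upper bound of 120 CPM.

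**Figure D2:**
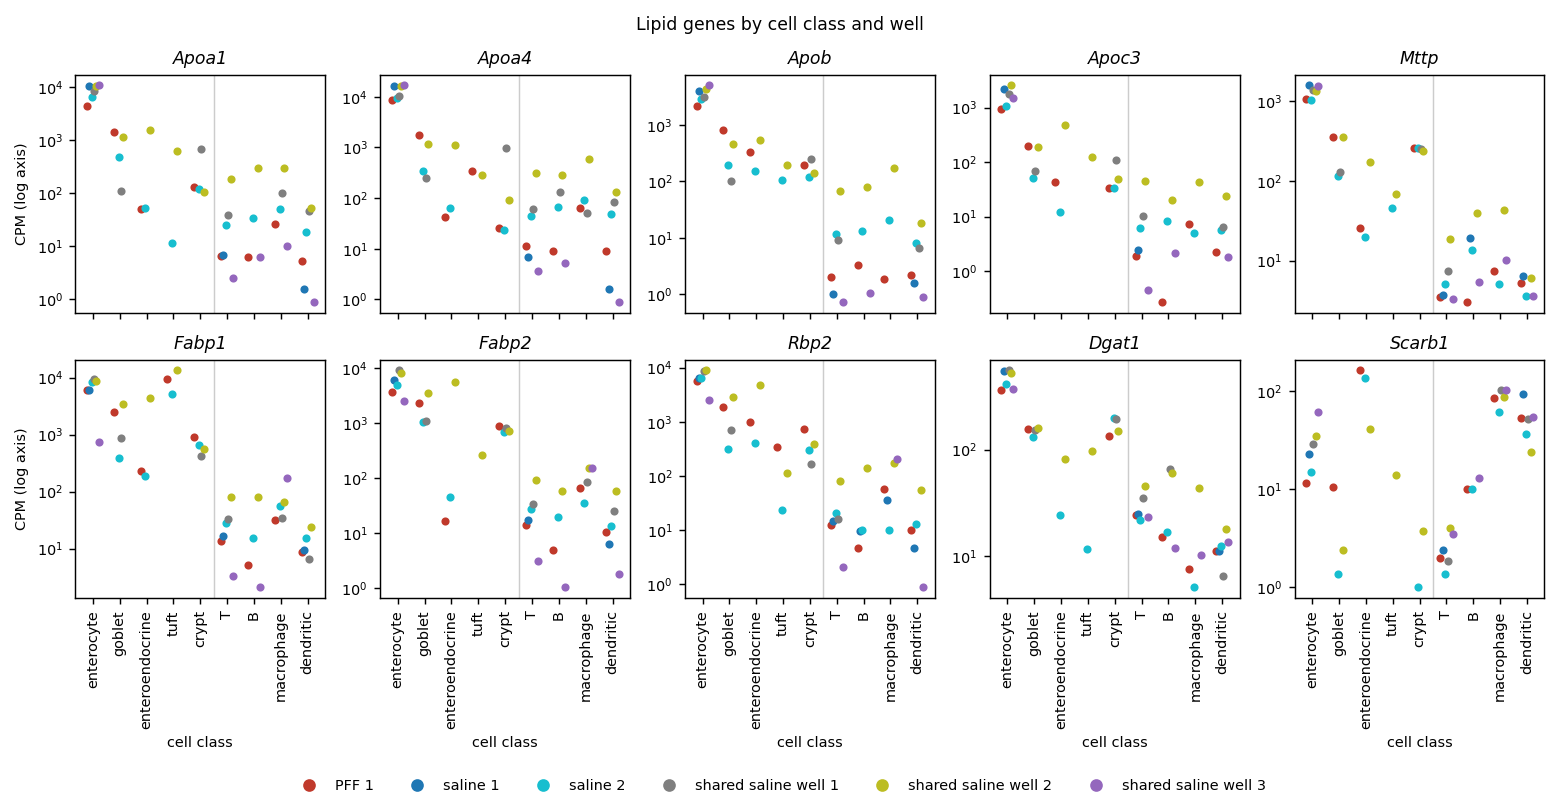
Level of each gene (CPM, log axis) by cell class, 1 point per well with at least 3 barcodes and at least 1 UMI; the grey line separates epithelial from immune classes. Fabp1 has 5054 to 13344 CPM in tuft cells. In enterocytes Fabp1 has 6140 to 9591 CPM over wells with at least 10 of them. It lies below that range in the 3 enterocytes of shared saline well 3. Scarb1 in dendritic cells (24.0 to 93.6 CPM) is above enterocytes in PFF 1, saline 1 and saline 2.

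Scarb1 was higher in dendritic cells than in epithelial cells of PFF 1, saline 1 and saline 2, and lower in shared saline well 2. It had 53.0 CPM in dendritic cells of PFF 1 (95% exact Poisson interval 44.6 to 62.5, 142 UMIs), 93.6 CPM in saline 1 (71.3 to 120.8) and 36.2 CPM in saline 2 (26.9 to 47.7). In epithelial cells it had 13.8 CPM in PFF 1 (10.6 to 17.8), 26.2 CPM in saline 1 (14.7 to 43.2) and 18.6 CPM in saline 2 (15.7 to 21.9). The intervals of dendritic and epithelial cells did not overlap in these 3 wells; intervals cover counting error only. In shared saline well 2 dendritic cells had 24.0 CPM (6.54 to 61.5, 4 UMIs), against 33.3 CPM in epithelial cells. Macrophages had 84.3 CPM in PFF 1 (61.5 to 112.8, 45 UMIs) and 61.3 CPM in saline 2 (31.7 to 107.1, 12 UMIs), and 0 UMIs in the 14 macrophages of saline 1, with an exact Poisson upper bound of 132.3 CPM. T cells of the same wells had 1.97, 2.39 and 1.35 CPM. Over 33 sums of well and class with at least 20 cells, Scarb1 correlated with the mean of the 10 genes at Pearson r = 0.29, against 0.92 to 0.98 for each of the other 9. That mean includes the gene it is compared with, which raises each r. The sums also share wells, and these values are a description.

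Levels in T cells were set beside the epithelial content of the well. Epithelial barcodes were 0.197% of barcodes past the depth filter in shared saline well 3, 1.16% in saline 1, 4.69% in PFF 1, 17.3% in saline 2, 36.5% in shared saline well 1 and 67.6% in shared saline well 2. In that order of wells, T cells had 3.63, 6.78, 11.3, 44.9, 62.0 and 309.8 CPM of Apoa4, higher in each well than in the one before, over a range of 85.4-fold. Apoa4 was the 1 member of 10 whose T cell level had the same order of wells as the epithelial share. Fabp1 had 3.24, 16.9, 13.8, 28.4, 32.8 and 81.2 CPM in the same order. Dgat1, which is widely expressed, had 23.2, 24.97, 24.0, 21.8, 34.7 and 45.3 CPM in T cells, a range of 2.08-fold. T cell levels were also set against the pool used for goblet cells, the epithelial cells of the well with its high mt- epithelial barcodes. The 5 wells with at least 10 epithelial cells were used. There, T cells had between 0.0304% and 2.11% of the pooled level for the 8 members other than Dgat1 and Scarb1. For Dgat1 they had between 4.97% and 8.49%. Thinned to 1000 UMIs per cell, 1.16% of PFF 1 T cells held an Apoa4 UMI (8.49% unthinned, median 9146 UMIs), against 0.685% in saline 1 (1.77% unthinned, 3231 UMIs) and 5.29% in saline 2 (33.0% unthinned, 10092 UMIs). A Dgat1 UMI was found at that depth in 236 of 9445, 122 of 4963 and 63 of 2724 T cells of PFF 1, saline 1 and saline 2, a share of 2.31% in saline 2 and 2.46% in saline 1.

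**Figure D3:**
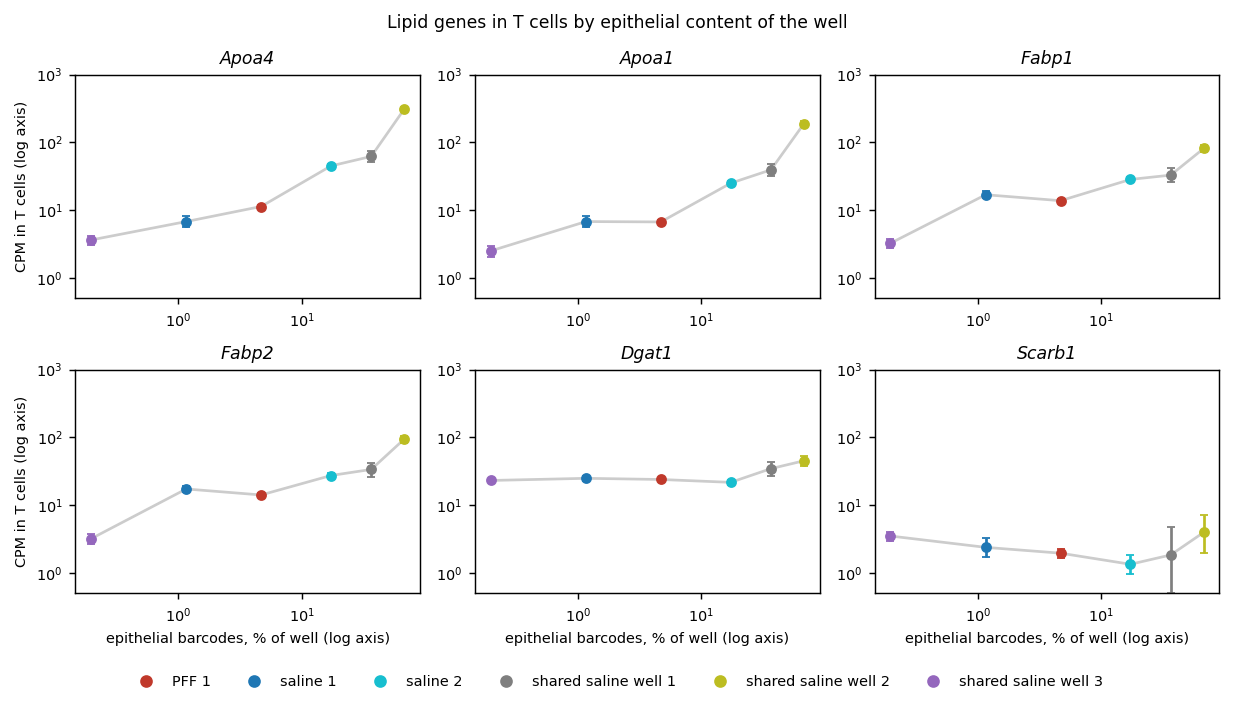
Level in T cells (CPM, log axis; bars are 95% exact Poisson intervals) of 6 genes against the share of epithelial barcodes in the well (percent, log axis), 1 point per well. Apoa4 climbs from 3.63 to 309.8 CPM with the epithelial share, whereas Dgat1 stays between 21.8 and 45.3 CPM and Scarb1 between 1.35 and 3.99 CPM.

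PFF injection was the study's question, and in epithelial cells no member passed the test. Of the 10 genes 0 were called, where 10 of 12343 genes (0.081%) were called by edgeR, 7 higher (0.0567%) and 3 lower (0.0243%), 257 had an unadjusted p under 0.05, and DESeq2 called 0 members and 24 genes. Each of the 10 fitted log2 fold changes was below 0, between -0.20 for Rbp2 (SE 1.34) and -1.03 for Apoa1 (SE 1.49), with a median of -0.55 over the members and 0.01 over all genes tested, and every adjusted p was 0.9999. Apoa1 had 3107 CPM in PFF 1, against 9176 CPM in saline 1 and 4066 CPM in saline 2. Mttp had 750.2 CPM in PFF 1, against 1365 and 654.2 CPM in the saline libraries. Of the 10 genes 7 were below both saline libraries in PFF 1, and Apoa4, Mttp and Rbp2 lay between them. The saline libraries differed from each other by more than PFF 1 differed from saline 2, the 10 genes together making up 2.35% of the epithelial total in PFF 1, against 4.63% in saline 1 and 2.54% in saline 2. Within batch 1, PFF 1 against saline 1 alone gave log2 values from -1.51 for Apoa1 to -0.23 for Fabp1, with no test; batch 2 holds saline only. Against saline 2 alone the values ran from -0.45 for Scarb1 to 0.17 for Mttp.

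The make-up of the epithelial cells moved with these levels. Enterocytes were 247 of 378 epithelial cells in PFF 1, 30 of 39 in saline 1 and 294 of 462 in saline 2. The 9 goblet markers summed to 68956 CPM of epithelial UMIs in PFF 1, 12589 CPM in saline 1 and 74602 CPM in saline 2, and the 11 enterocyte markers to 4180, 13306 and 4659 CPM. Tip markers summed to 2941, 4007 and 3310 CPM and base markers to 7588, 6011 and 9480 CPM in the same order. Their part in the result was not tested. Within enterocytes alone 8 members lay below both saline libraries in PFF 1 and 0 were called. Tip enterocytes gave fitted log2 fold changes above 0 for all 10 (median 0.50), although by CPM Apoa1, Mttp and Fabp1 were below 0, at -0.02, -0.09 and -0.12, and base enterocytes below 0 for all 10 (median -0.99), with 0 called in either. Of the 52 other lipid genes 50 were tested and 0 called. Among those with at least 20 CPM in PFF 1 or in saline, the highest values were Plin2 0.53, Isx 0.46 and Rdh7 0.45. The lowest among them were Apoc2 -1.36, Cd36 -1.18 and Lpin3 -1.11.

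**Figure D4:**
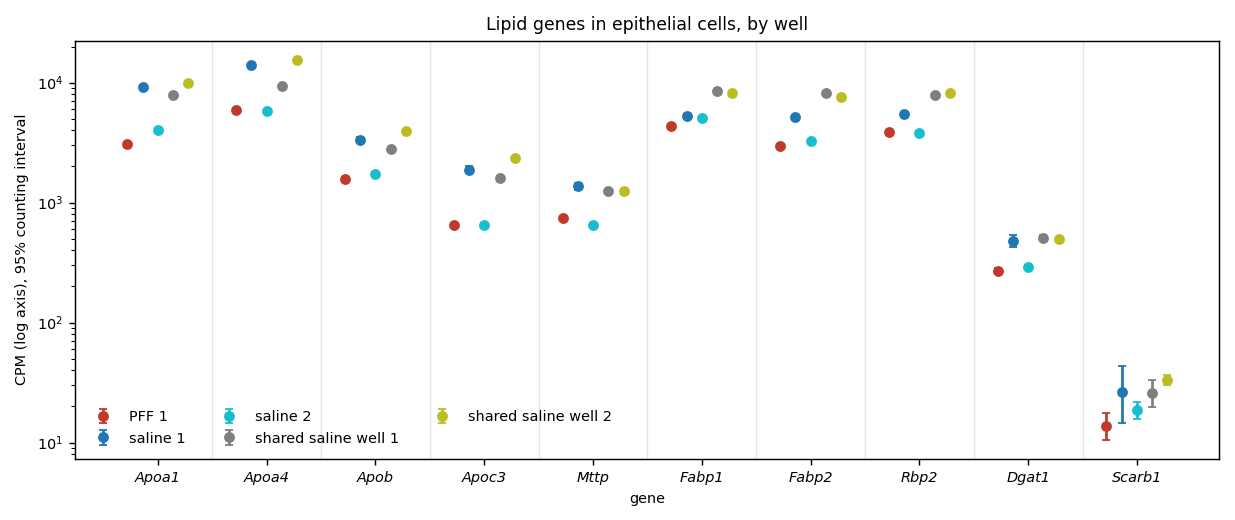
Level of the 10 genes (CPM, log axis) in epithelial cells of PFF 1 (left, red) and 4 saline wells; bars are 95% exact Poisson intervals, which cover counting error only. PFF 1 lies close to saline 2 for most genes, and saline 1 and the shared wells lie above both.

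In barcodes above 15% mt- UMIs, 0 of the 10 members were called between PFF 1 and saline, where 2 of 12099 genes (0.0165%) were called by edgeR, 893 had an unadjusted p under 0.05 and DESeq2 called 0. All 10 levels were below both saline libraries. Apoa1 had 2658 CPM in PFF 1, against 6079 and 4854 CPM in saline 1 and saline 2 (log2 fold change -0.83 ± 0.50, adjusted p = 0.804). Scarb1 had the lowest adjusted p of the members, 0.682 (log2 -0.86 ± 0.40), at 63 UMIs among 4199507 in PFF 1 against 37.0 and 27.5 CPM in saline 1 and saline 2. Epithelial barcodes were 228 of 658 high mt- barcodes in PFF 1, 25 of 54 in saline 1 and 438 of 883 in saline 2; the part of this in the levels was not tested. With the epithelial gate applied 7 of the 10 values were above 0, among them Apoa4 at 15561 CPM in PFF 1, against 13304 and 11282 CPM. Of the other lipid genes 0 of 48 tested were called. Apoe had 285.0 CPM in PFF 1 and 102.3 CPM on average in saline (log2 1.60 ± 0.39, edgeR adjusted p = 0.616), and Cd36 had a log2 value of -0.27. Among those with at least 20 CPM in PFF 1 or in saline, the lowest were Abcg5 -1.34, Lpin3 -1.21 and Npc1l1 -1.18.

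In T cells, a class of another lineage, 0 of the 10 members were called between PFF 1 and saline, where 3 of 15383 genes (0.0195%) were called by edgeR, 559 had an unadjusted p under 0.05, and DESeq2 called 0 members and 5 genes. Fitted log2 fold changes were below 0 for 8 members, lowest for Apob (-1.72 ± 0.88, adjusted p = 0.999), and were 0.05 for Dgat1 and 0.11 for Scarb1. The epithelial share of PFF 1, 4.69%, lay between those of saline 1, 1.16%, and saline 2, 17.3%. The T cell levels of Apoa1, Apoc3, Mttp, Fabp1, Fabp2 and Rbp2 were below both saline libraries in PFF 1. Those of Apoa4 and Apob lay between saline 1 and the higher saline 2, and those of Dgat1 and Scarb1 between saline 2 and the higher saline 1. Of the other lipid genes 0 of 40 tested were called. Among those with at least 20 CPM in PFF 1 or in saline, the highest values were Lpin2 0.25, Gpat4 0.16 and Lpcat3 0.10. The lowest among them were Surf4 -0.25, Soat2 -0.13 and Acsl5 -0.07. Over all genes tested, at any level, the median was -0.89 for sterol efflux, -0.90 for retinoid handling and -0.78 for regulators. It was -0.22 for uptake, -0.03 for resynthesis and -0.04 for chylomicron assembly. Without saline 2, Apoa4 had a log2 value of 0.80 and Apob 1.02. With no filter on low counts Apoa1, Apoa4 and Apob were called lower (adjusted p = 0.00117, 0.00012 and 0.00588), so that result rests on the filter.

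Levels in high mt- epithelial barcodes were set against epithelial cells, and for Apoa1, Apoa4, Apoc3 and Mttp the direction differed between wells. Fabp1 had 1450 CPM in high mt- epithelial barcodes and 4354 CPM in epithelial cells of PFF 1, 844.4 and 5298 CPM in saline 1, and 3206 and 5033 CPM in saline 2, so it was lower in the high mt- barcodes in 5 of 5 wells. Its log2 fold change was -1.16 ± 0.44 (edgeR, adjusted p = 0.0315). Apob had 3410 and 1568 CPM in PFF 1, 3490 and 3340 CPM in saline 1, and 3248 and 1738 CPM in saline 2 (log2 1.14 ± 0.42, adjusted p = 0.0233). Dgat1 (log2 0.83 ± 0.26, adjusted p = 0.00754), Scarb1 (1.22 ± 0.27, adjusted p = 0.000214) and Apoc3 (1.07 ± 0.37, adjusted p = 0.0176) were called higher too. Apoc3, however, was lower in the high mt- barcodes of saline 1 and of shared saline wells 1 and 2, at 0.685, 0.736 and 0.840 of the level in cells. Apoa1, Apoa4, Mttp, Fabp2 and Rbp2 were not called (edgeR, adjusted p = 0.0691, 0.0978, 0.0550, 0.318 and 0.246). That made 4 members higher and 1 lower, where 11.5% of 10860 genes were called higher and 28.5% lower (40% in all), and the median log2 fold change was 0.95 over the members and -0.28 over all genes. The count rested on single libraries: 7 members were called without saline 1, 0 without saline 2 and 1 without PFF 1. The share of all genes called moved too, at 45.2%, 13.2% and 17.4% in the same order. In enterocytes alone 1 member was higher and 3 were lower, where 848 of 9226 genes were called higher and 1999 lower (30.9% in all).

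Tip markers were at 5351, 5173 and 3721 CPM in the high mt- epithelial barcodes of PFF 1, saline 1 and saline 2, against 2941, 4007 and 3310 CPM in epithelial cells. Base markers were at 3903, 1169 and 4390 CPM against 7588, 6011 and 9480 CPM. Goblet cells held 1039466 of 4405580 epithelial cell UMIs in PFF 1, 15195 of 572811 in saline 1 and 1485498 of 7679235 in saline 2. Goblet barcodes held 14179 of 1220216 high mt- epithelial UMIs in PFF 1 and 178564 of 4604908 in saline 2. The part of the zone markers and of goblet cells in the result was not tested. Of the 52 other lipid genes 48 were tested, 18 were called higher and 3 lower in the high mt- barcodes, against 11.5% and 28.5% of all genes tested. Those higher were Slc27a4 (log2 1.39 ± 0.26), Cd36 (1.31 ± 0.23), Npc1l1 and Slc27a2 in uptake, Gpat3 (1.25 ± 0.21), Lpin3, Soat2, Dgat2, Lpin2, Plin3 and Mogat2 in resynthesis, the sterol exporters Abca1, Abcg5 and Abcg8, and Apoc2, Sec23a, Creb3l3 and Pparg. Among those lower were Vldlr (-3.46 ± 0.79) and Cdx2 (-0.98 ± 0.25).

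**Figure D5:**
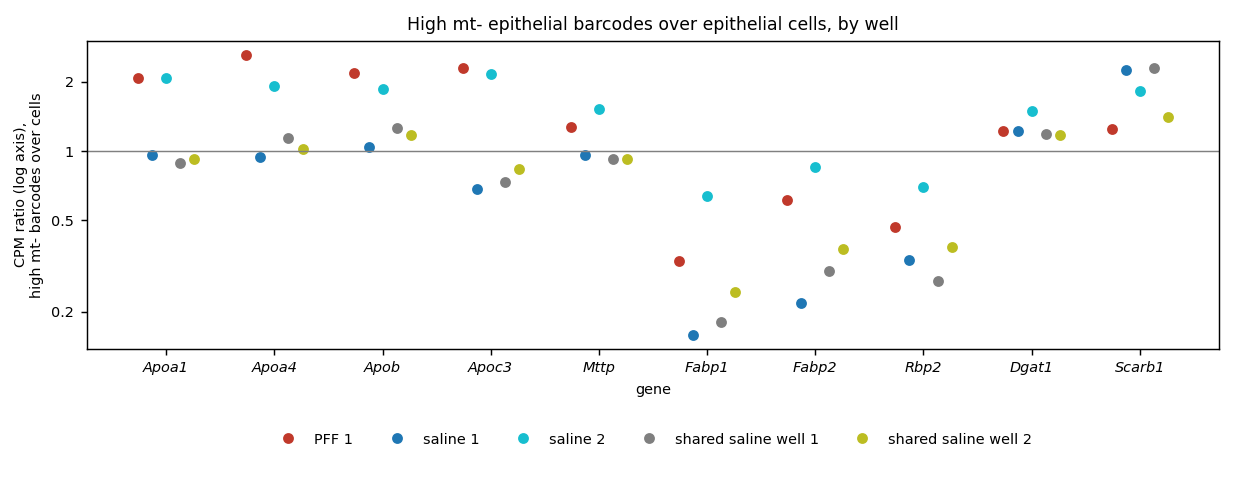
Ratio of the level in high mt- epithelial barcodes to that in epithelial cells (log axis) for each gene, 1 point per well. Fabp1, Fabp2 and Rbp2 lie below 1 and Dgat1 and Scarb1 above 1 in all 5 wells; for Apoa1 and Apoc3 PFF 1 and saline 2 lie above 1 and the other 3 wells below it.

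The genes whose levels were most like the mean of the 10 members over the 33 sums of well and class were 2010106E10Rik (Pearson r = 0.99), Cyp3a25 (0.98), Sult1d1 (0.98), Papss2 (0.98) and Ada (0.98), the last being 1 of the 4 tip markers.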

How the data were processed

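The authors deposited UMI counts per gene and barcode, made with Cell Ranger 7.0.0 per the file headers. The mm10 build comes from the submitters' processing notes. No source used here gives the annotation release or says how wells were joined. The authors' count values were used as deposited, with 0 columns left unused. Barcodes needed at least 500 UMIs and 200 genes, and those with at most 15% mt- UMIs were called cells. Epithelial cells had at least 3 of 11 epithelial markers and at most 1 UMI of 8 immune markers, so barcodes with markers of both kinds were left out; no doublet caller was run. Immune classes needed at least 2 class markers. Counts were summed per well and class and tested with edgeR 4.0.16 (TMM, filterByExpr, quasi-likelihood, R 4.3.3), called at an adjusted p under 0.05 over all genes. PFF against saline has 1 PFF library and 1 residual degree of freedom; contrasts within libraries kept the library as block. DESeq2 1.42.0 and other settings were alternatives. The tests were also run on counts simulated with a fixed dispersion of 0.05 for every gene, not one estimated from these libraries. That run does not measure how the tests perform at the spread seen here. The members and the lists were chosen with earlier results of these data known. All 10 members were named; of the other lipid genes those called, otherwise the 3 highest and 3 lowest at 20 CPM or more; the 5 genes most alike had at least 50 CPM in epithelial cells. Depth per file was 119282469 to 163433860 UMIs. The results of 1 gene of the lipid lists are not reported here.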

Additional observations from a re-analysis of the deposited data

Results flagged for a closer look

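In tip enterocytes PFF 1 was above both saline libraries, and in base enterocytes below both, for 4 genes; the difference between the groups was not tested, and the PFF side is 1 library. For Apoa4 the log2 ratio of PFF 1 to the saline mean was 0.47 at the tip and -1.43 at the base, a difference of 1.90. For Apob it was 0.33 and -1.17, a difference of 1.5. For Apoc3 it was 0.56 and -1.33, a difference of 1.88. For Scarb1 it was 1.21 and -1.69, a difference of 2.91, on 11 UMIs in each PFF 1 group. The tip groups held 82 cells in PFF 1, 10 in saline 1 and 98 in saline 2.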

How the results depend on the processing

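No paired analysis was possible because PFF is 1 library, which shares 1 replicate number with saline. Contrasts within libraries had the library as replicate block; without it, members called in high mt- against other epithelial barcodes numbered 1 in place of 5 and genes 1408 in place of 4341, while tip against base gave 7 members called (2917 genes) and epithelial against T cells 10 (10325 genes). The alternatives on shared barcodes, at least 5000 UMIs, tip or base enterocytes only and the epithelial gate among high mt- barcodes were chosen after seeing the data.

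In epithelial cells, PFF against saline, 0 members were called under every alternative run, while genes called numbered 10 at first and 24 with RLE, 24 with DESeq2, 69 with no low-count filter, 63 with immune marker UMIs allowed, 6 with at least 4 epithelial markers, 4 with at least 1000 or at least 5000 UMIs, 3 with every well a library, with the shared wells as 1 more library or at most 10% mt-, 5 in tip and 2 in base enterocytes, and 0 without the shared barcodes or in enterocytes alone. Log2 values ran from -0.81 without saline 2 to 0.17 without saline 1 for Mttp and from -0.42 to 0.0054 for Rbp2, and turned round in tip enterocytes for Apoa1 0.18, Apoa4 0.64, Apob 0.47, Apoc3 0.73, Mttp 0.13, Fabp1 0.23, Fabp2 0.54, Rbp2 0.57, Dgat1 0.20 and Scarb1 1.04. In high mt- barcodes the 2 genes called became 67 with no filter, 38 with the epithelial gate, and 0 with DESeq2, every well, the deposited files, the wells in common as 1 library, above 25% mt- and without the shared barcodes. There, above 25% mt-, values turned to 0.49 for Apoa1, 1.01 Apoa4, 0.45 Apob, 1.09 Apoc3, 0.39 Mttp, 0.44 Fabp1, 0.48 Fabp2, 0.63 Rbp2 and 0.23 Dgat1, and with the epithelial gate to 0.11 for Apoa1, 0.87 Apoa4, 0.54 Apob, 0.63 Apoc3, 0.27 Mttp, 0.30 Fabp2 and 0.18 Rbp2.

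In T cells the 3 genes called became 102 with no filter (members 3), 5 with DESeq2, 7 at most 10% mt-, 1169 with the files as deposited, and 0 with every well or the shared wells as 1 library. With 1 saline library left out values ran from -1.93 to 0.0402 for Apoa1, -2.02 to 0.80 for Apoa4, -2.58 to 1.02 for Apob and -0.23 to 0.51 for Scarb1. Values turned round with the files as deposited for Fabp1 (0.0562), Fabp2 (0.0561), Rbp2 (0.25), Dgat1 (-0.0212) and Scarb1 (-0.59), with every well for Dgat1 (-0.26) and Scarb1 (-0.39), and with the shared wells as 1 library for Scarb1 (-0.30). Epithelial against T cells kept all 10 members called; genes were 9928, and 5462 with immune marker UMIs allowed. High mt- against other epithelial barcodes gave 0 to 7 members and 986 to 5114 genes when 1 library was left out, 1 member and 2127 genes above 25% mt-, and 1646 genes with DESeq2, 8301 with the files as deposited and 2847 in enterocytes; Fabp2 ran from -0.96 without saline 2 to 0.38 without saline 1 and Rbp2 from -0.85 to 0.0355, and they turned to 0.41 and 0.32 with immune marker UMIs allowed. Tip against base gave 3149 genes, 2042 with DESeq2, 5295 with every well, 7772 with the files as deposited, 5184 with the shared wells as 1 library and 1362 to 3785 with 1 library left out; Dgat1 turned to -0.0217 with no filter and ran from -0.0925 without PFF 1 to 0.41 without saline 1. The cause of these shifts was not tested. Files as deposited count the shared wells in both saline libraries. With 39 epithelial cells in saline 1 and 1 PFF library, SEs for PFF against saline were 0.65 to 1.63 on the log2 scale.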

Other observations

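Epithelial cells of low depth had higher Apoa4 levels than deeper ones, and tip markers were not measured by depth. Apoa4 had 37035 CPM in PFF 1 and 35861 CPM in saline 2 among epithelial cells under 2000 UMIs, and 4404 and 5074 CPM among those with at least 2000 UMIs. Of the PFF 1 epithelial cells 204 were under 2000 UMIs and 174 were not. Epithelial barcodes without markers of a named class had Apoa4 at 31423 CPM in PFF 1 (77 barcodes) and 32604 CPM in saline 2 (78 barcodes). In saline 1 the level was 2325 CPM, on only 6 barcodes.

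The T cell signal of saline 1 differed in gene balance from its epithelial cells: Fabp1 had 16.9 CPM and Apoa4 6.78 CPM in T cells, against 5298 and 14129 CPM in epithelial cells. In PFF 1 the values were 13.8 and 11.3 CPM in T cells, against 4354 and 5935 CPM in epithelial cells.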
